A study of Mus musculus with 10 samples.

Results

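Kainate receptors are ionotropic glutamate receptors, that is, cation channels opened by the transmitter glutamate. They are tetramers built from the subunits encoded by Grik1 to Grik5, and the transmembrane proteins encoded by Neto1 and Neto2 associate with them and alter how they gate. These genes were taken by name: the 5 subunit genes and the 2 auxiliary genes, 7 of the 43629 genes in the count table. One of them, Grik1, lies in the segment of mouse chromosome 16 (Mmu16) that Dp1Tyb mice carry in an extra copy, and the other 6 lie on 6 other chromosomes.

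RNA was sequenced from the whole hippocampus of 5 Dp1Tyb and 5 wild-type (WT) littermates, 1 library per mouse, to compare gene expression in a mouse model of Down syndrome with controls. The labels give an age of 18 weeks and for every mouse a C57BL/6J strain background with the donor strain 129P2, and the genotype Dp(16Lipi-Zbtb21)1TybEmcf for the Dp1Tyb mice; the methods state that all were male and give a slightly higher age. The duplication runs from Lipi to Zbtb21, from 75540514 to 97962622 on chromosome 16 of the GRCm38 build (22.4 Mb), and is in the germline, so every cell holds 3 copies of this segment instead of 2. It takes in 250 genes of the count table, 114 of them tested here, so that Grik1 was never raised alone. Total counts ranged from 18227684 to 43692270 per sample, a ratio of 2.4. Summed levels of 9 choroid plexus markers, an epithelium beside the hippocampus, ranged from 427.2 to 5440.8 CPM (counts scaled to a common library size) in WT and from 41.8 to 3872.7 CPM in Dp1Tyb, and 3 libraries stood apart with under 500 CPM (WT replicate 2, Dp1Tyb replicates 1 and 4). The markers of CA1 (4 genes), CA3 (5), dentate granule cells (5) and interneurons (8) were counted in every sample.

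Within the family, Grik1, Grik2 and Grik3 encode GluK1, GluK2 and GluK3, which can form channels by themselves and bind kainate with low affinity. Grik4 and Grik5 encode the high-affinity subunits GluK4 and GluK5, which form working channels only together with GluK1 to GluK3. In the hippocampus, GluK1 is known mainly from GABAergic interneurons, GluK2 and GluK4 from CA3 pyramidal cells at the mossy fibre synapse, GluK3 from dentate granule cells and interneurons, and GluK5 from most principal neurons. The products of Neto1 and Neto2 slow the decay of the receptor current, and Neto1 is prominent in CA3.

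The relation among the subunits is visible in the stretch that encodes the pore loop, which lines the channel. The 63 bases below are the coding strand of the GENCODE M21 transcripts on GRCm38, read 5′ to 3′, and are shown because they separate the low-affinity from the high-affinity genes and hold the Q/R codon, given in capitals. In Grik1 and Grik2 transcripts this glutamine codon can be changed to an arginine codon by RNA editing, which lowers the calcium permeability of the channel.
Grik1: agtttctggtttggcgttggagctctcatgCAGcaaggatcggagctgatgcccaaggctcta
Grik2: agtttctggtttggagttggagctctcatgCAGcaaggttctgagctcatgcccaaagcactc
Grik3: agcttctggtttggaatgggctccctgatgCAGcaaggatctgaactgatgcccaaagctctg
Grik4: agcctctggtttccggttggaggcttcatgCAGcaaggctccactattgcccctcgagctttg
Grik5: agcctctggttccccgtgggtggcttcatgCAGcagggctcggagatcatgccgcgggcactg
The Grik1 window joins exons 12 and 13 of the 17 exons of its transcript (chr16:87936090-87940574, minus strand), the Grik2 window exons 13 and 14 of 17 (chr10:49240771-49244361, minus strand) and the Grik3 window exons 12 and 13 of 16 (chr4:125691177-125693987, plus strand), each with an intron between the coordinates given. The windows of Grik4 (chr9:42547593-42547655, minus strand, exon 16 of 21) and Grik5 (chr7:25022467-25022529, minus strand, exon 15 of 20) each lie in 1 exon. Of the 63 bases, Grik1 shares 56 with Grik2 and 51 with Grik3, but 39 with Grik4 and 44 with Grik5, while Grik4 and Grik5 share 46 with each other. All 5 genes carry CAG in the genome at this codon. Counts per gene carry no bases, so the edited share of the transcripts was not analysed here. No stretch of 75 bases, the read length, was shared between any 2 of the 7 genes' annotated transcripts. With genes outside the family, Neto1 shared 146 of its 8421 such stretches (1.73%) and Grik2 shared 10 of 13595 (0.0736%); the other 5 genes shared 0.

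Grik1 was upregulated in the Dp1Tyb hippocampus and was the only one of the 7 genes to pass the test. Differential expression was tested with edgeR over 17237 genes, and a gene was called at an adjusted p under 0.05. All 7 genes passed the filter on low counts, with 211 to 10700 counts per sample. Of all tested genes, 191 were called in either direction (1.11%) and 150 were called higher (0.87%), so that 1 call among 7 genes rests on a single gene whose copy number differs by design. For 634 genes, or 3.68% of those tested, the values of the 2 genotypes did not overlap, and among the 7 this held for Grik1. Over the 7 genes the median log2 fold change was 0.10, and over the 6 outside the segment it was 0.08, against 0.00 over all tested genes.

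Grik1 (ENSMUSG00000022935, chromosome 16, 87895900 to 88290265, minus strand) had 11.3, 13.2, 12.1, 11.9 and 9.84 CPM in WT replicates 1 to 5 and 17.8, 20.2, 21.0, 23.8 and 18.8 CPM in Dp1Tyb replicates 1 to 5. The lowest Dp1Tyb mouse lay above the highest WT mouse. The WT mean was 11.7 ± 1.23 CPM and the Dp1Tyb mean 20.3 ± 2.30 CPM (SD, 5 mice each), which rest on 211 to 394 and 413 to 785 counts per sample. On the log2 scale Grik1 rose by 0.80 ± 0.092 SE (edgeR, adjusted p = 0.000326), a fold change of 1.74 with a 95% interval of 1.51 to 2.0. Among the Dp1Tyb mice, the 2 with the least choroid plexus marker RNA, replicates 1 and 4, had the lowest and the highest Grik1 level. With the 3 plexus-poor libraries left out, an alternative chosen after seeing the data, Grik1 rose 1.76-fold (95% interval 1.55 to 2.01, edgeR adjusted p = 0.000366).

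**Figure D1:**
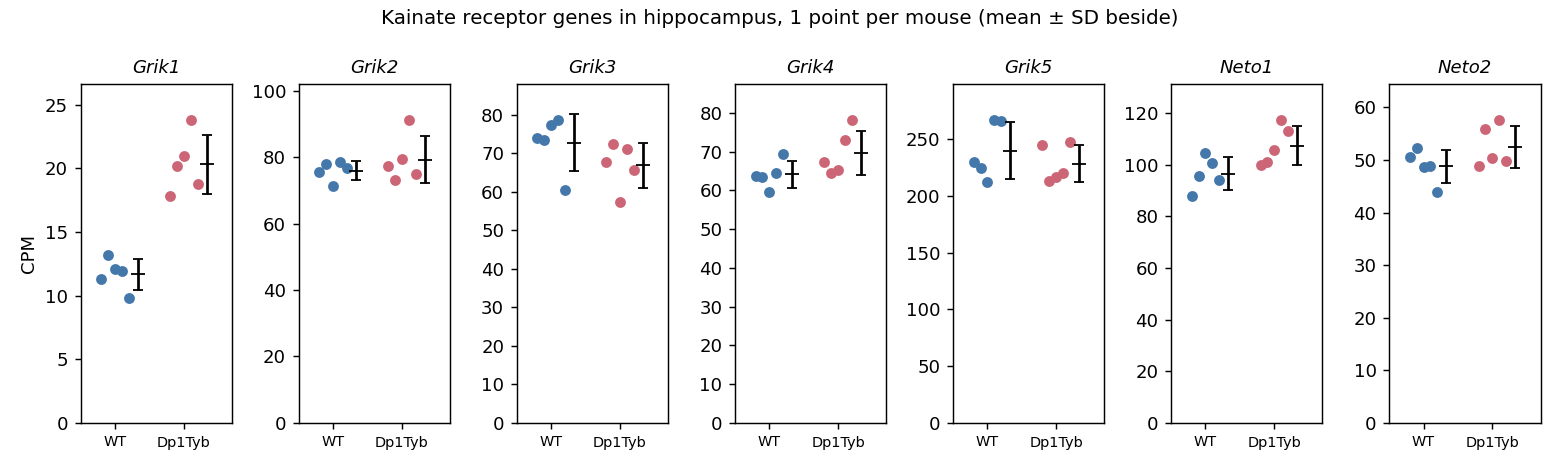
Levels in CPM (y axes, each starting at 0) of the 7 kainate receptor genes in the hippocampus of 5 WT (blue) and 5 Dp1Tyb (red) mice, 1 point per mouse, with the mean ± SD in black beside the points. For Grik1 the Dp1Tyb mice, from 17.8 to 23.8 CPM, lie above all WT mice, from 9.84 to 13.2 CPM, and for the other 6 genes the groups overlap.

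The next question was whether Grik1 rose by more than the 1.5-fold that 3 copies against 2 would give if expression followed copy number. The lower bound of its interval, 0.599 on the log2 scale, lay just above 1.5-fold, which is 0.585. This holds only narrowly: in 10 of 16 alternative analyses the interval remained above 1.5-fold, but it did so in only 4 of the 10 that left out a single mouse, and it reached below 1.5-fold without Dp1Tyb replicate 2, 3 or 4 or without WT replicate 1, 4 or 5. The analyses above 1.5-fold include a fit that groups mice by replicate number (replicate block), although the numbers were not taken to pair the mice. The fitted fold change itself ranged from 1.66 to 1.80 over the 16 alternatives.

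Set among the genes duplicated with it, Grik1 had the 10th largest log2 fold change of the 114 tested genes of the segment, and the 6th largest of the 68 that were called, all higher (59.6% of the segment). The median fold change was 1.45 over the 114 genes and 1.51 over the 68, the latter raised by the selection of called genes. The 95% interval lay wholly above 1.5-fold for 12 of the 114 (10.5%). Besides Grik1 these were Mx2, Rbm11, C2cd2, Son, Cbr3, Ifnar1, Zbtb21, Cct8, Jam2, App and Wrb, with fold changes from 1.6 for Wrb to 2.08 for Mx2. The value of Mx2 rests on few counts, with a mean of 1.36 CPM and the largest SE of the 12 (0.18 on the log2 scale). App encodes the amyloid precursor protein and Son a nuclear splicing factor.

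**Figure D2:**
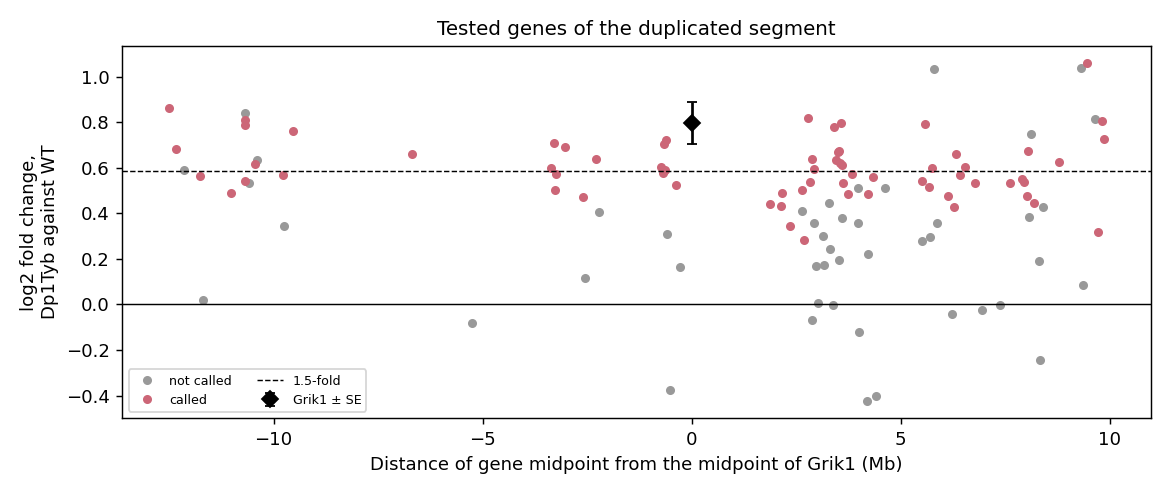
Log2 fold change in Dp1Tyb against WT (y axis) of the 114 tested genes of the duplicated segment, against the distance in Mb of each gene's midpoint from that of Grik1 (x axis). Red points are the called genes (67 besides Grik1) and grey points those that were not called. Grik1, the black diamond at 0 with its SE, stands at 0.80, above the 1.5-fold line at 0.585. Its fitted value is above those of the genes nearest to it on both sides, a difference that was not tested.

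The 5 tested genes nearest to Grik1 on each side, 10 in all, each had a smaller log2 fold change than Grik1. Of these, 7 were called higher and 0 lower, with called values from 0.35 to 0.72. Differences between Grik1 and its neighbours were not tested. The 95% intervals of some neighbours, among them Cct8 and Bach1, overlapped that of Grik1, and those of others, among them Tiam1 and Hunk, did not. The nearest, 2810407A14Rik, is a long non-coding RNA 56.6 kb away with means of 1.14 ± 0.488 CPM (WT) and 1.28 ± 0.229 CPM (Dp1Tyb; SD, 5 mice each), and its log2 difference of 0.16 ± 0.28 SE did not pass (edgeR, adjusted p = 0.819). Bach1, 162.6 kb away, encodes a haem-regulated transcriptional repressor and had 15.2 ± 0.888 CPM (WT) and 21.9 ± 1.26 CPM (Dp1Tyb), a rise of 0.53 ± 0.062 SE on the log2 scale (adjusted p = 0.000397 in edgeR). On the other side the nearest tested gene was Tiam1, 1496.8 kb away, an activator of the GTPase Rac that acts in dendritic spines, and rose by 0.44 ± 0.039 SE on the log2 scale (adjusted p = 2.42e-05 in edgeR). Next to it Sod1, which encodes a superoxide dismutase, rose by 0.43 ± 0.073 SE on the log2 scale (edgeR adjusted p = 0.00967). The other called neighbours were Cct8, a subunit of the chaperonin that folds actin and tubulin (0.72 ± 0.041 SE), Scaf4 (0.49 ± 0.057 SE), the kinase gene Hunk (0.35 ± 0.056 SE) and Mis18a, whose product acts at centromeres (0.50 ± 0.093 SE). The edgeR adjusted p-values of these were 7.47e-07, 0.000364, 0.00732 and 0.0182, and the call of Mis18a was lost without Dp1Tyb replicate 2 or 3 or without WT replicate 4 or 5. Sod1 and Scaf4 overlap on opposite strands, and the strand setting of the counting is not given in the sources used here, so their values cannot be fully told apart. The remaining neighbours, Map3k7cl and B130034C11Rik, had log2 differences of −0.37 ± 0.28 SE and 0.31 ± 0.13 SE and did not pass.

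The other low-affinity subunits did not pass the test. Grik2 (ENSMUSG00000056073, chromosome 10, 49094833 to 49788766, minus strand) had 75.6, 77.8, 71.2, 78.4 and 76.8 CPM in WT replicates 1 to 5 and 77.4, 73.1, 79.6, 91.2 and 74.8 CPM in Dp1Tyb replicates 1 to 5. Apart from Dp1Tyb replicate 4, which was the highest of all, both genotypes covered much the same range. Means were 76.0 ± 2.85 and 79.2 ± 7.15 CPM (SD, n = 5), a fold change of 1.04 with a 95% interval of 0.958 to 1.13 (edgeR adjusted p = 0.653). Without the plexus-poor libraries, which include that replicate, the log2 difference of 0.06 ± 0.057 SE became −0.0024 ± 0.051 SE, so no direction can be given for Grik2.

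Grik3 (ENSMUSG00000001985, chromosome 4, 125490700 to 125714173, plus strand) had 74.0, 73.6, 77.5, 78.7 and 60.4 CPM in the WT mice, in replicate order, and 67.8, 72.4, 57.4, 71.1 and 65.7 CPM in the Dp1Tyb mice. WT mice 1 to 4 lay above all Dp1Tyb mice and WT replicate 5 lay below all but 1 of them. Means were 72.8 ± 7.28 CPM (WT) and 66.9 ± 5.95 CPM (Dp1Tyb; SD, n = 5), a log2 difference of −0.12 ± 0.075 SE and a fold change of 0.918 with a 95% interval of 0.82 to 1.03 (edgeR adjusted p = 0.482).

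Of the high-affinity subunits, Grik4 (ENSMUSG00000032017, chromosome 9, 42518135 to 42944493, minus strand) had 63.7, 63.6, 59.5, 64.4 and 69.5 CPM in WT replicates 1 to 5 against 67.3, 64.6, 65.3, 73.0 and 78.2 CPM in Dp1Tyb replicates 1 to 5. WT replicate 5 overlapped the Dp1Tyb range while the other 4 WT mice lay below it. Means were 64.1 ± 3.55 and 69.7 ± 5.78 CPM (SD, n = 5), a log2 difference of 0.12 ± 0.058 SE that did not pass (edgeR adjusted p = 0.376). The 95% interval of the fold change ran from 0.995 to 1.18. Grik4 is known from CA3, and the summed level of the 5 CA3 markers (Bok, Iyd, Cdh24, Prss35 and Cpne4) ranged from 182.0 to 214.9 CPM in WT and from 218.3 to 225.7 CPM in Dp1Tyb, without overlap, although 0 of the 5 were called. Most of the difference in the sum came from Cpne4, at 113.2 ± 5.82 CPM (WT) and 127.0 ± 2.23 CPM (Dp1Tyb), while Bok was at 60.6 CPM in both genotypes. Cpne4 and Prss35, the latter at 9.77 ± 0.742 CPM (WT) and 12.1 ± 0.787 CPM (Dp1Tyb), did not overlap between genotypes, and the remaining markers did. Per 100 CPM of these markers, Grik4 was at 31.5 ± 1.6 CPM (WT) and 31.5 ± 2.56 CPM (Dp1Tyb; SD, 5 mice each), a ratio of means of 1.00. This ratio was computed after seeing the data and leans on Cpne4, and the part of the CA3 markers in the Grik4 value was not tested. In whole tissue, a larger share of cells of one type and more RNA per cell cannot be told apart.

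Grik5 (ENSMUSG00000003378, chromosome 7, 25009849 to 25072346, minus strand) was the most abundant of the 7 genes. Its levels were 229.9, 224.6, 211.9, 267.0 and 266.4 CPM in the WT mice and 245.3, 213.1, 216.8, 220.0 and 247.2 CPM in the Dp1Tyb mice. WT replicates 4 and 5 were the highest and the Dp1Tyb mice lay between the WT extremes. With means of 240.0 ± 25.3 and 228.5 ± 16.4 CPM (SD, n = 5), the log2 difference was −0.07 ± 0.069 SE and the 95% interval of the fold change was 0.859 to 1.06 (edgeR adjusted p = 0.662).

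The auxiliary genes were both slightly higher in Dp1Tyb on average, and neither passed the test. Neto1 (ENSMUSG00000050321, chromosome 18, 86394952 to 86506718, plus strand) had 87.8, 95.5, 104.5, 100.7 and 94.2 CPM in the WT mice and 99.8, 101.2, 105.9, 117.4 and 113.2 CPM in the Dp1Tyb mice. Of the 5 Dp1Tyb mice, 3 lay above every WT mouse. Means were 96.5 ± 6.41 and 107.5 ± 7.61 CPM (SD, n = 5), a fold change of 1.11 with an unadjusted 95% interval of 1.02 to 1.21. This was the only member outside the segment with an unadjusted p under 0.05 in edgeR, and after adjustment over all tested genes it did not pass (edgeR adjusted p = 0.238, with 0.0887 to 0.401 over 16 alternative analyses). The lowest of these values came from the replicate block. The annotation places an antisense gene over Neto1, so reads of the other strand could have been counted.

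Neto2 (ENSMUSG00000036902, chromosome 8, 85636588 to 85700924, minus strand) had 50.5, 52.2, 48.6, 48.8 and 43.9 CPM in WT against 48.8, 55.8, 50.4, 57.6 and 49.8 CPM in Dp1Tyb. The ranges overlapped, with 2 Dp1Tyb mice above all WT mice. Means were 48.8 ± 3.11 and 52.5 ± 3.95 CPM (SD, n = 5), a fold change of 1.08 with a 95% interval of 0.984 to 1.18 (edgeR adjusted p = 0.443). For none of the 6 genes outside the segment did the interval reach 1.5-fold, and the highest upper bound was 1.21, for Neto1. Of the 17123 tested genes outside the segment, 0.718% were called, and 0 of these 6.

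To compare levels between genes, CPM was divided by the exon length of each gene in kb (RPKM). In WT, Grik5 was highest at 46.4 ± 4.88 RPKM, followed by Neto1 at 11.6 ± 0.773, Grik4 at 10.8 ± 0.609, Grik3 at 8.12 ± 0.812, Neto2 at 7.96 ± 0.505, Grik2 at 5.74 ± 0.214 and Grik1 at 1.74 ± 0.184 RPKM (SD, n = 5). Neto1 and Grik4 overlapped between mice, as did Grik3 and Neto2, so the order within these pairs is not settled. In Dp1Tyb, Grik1 reached 3.02 ± 0.342 RPKM and remained the lowest of the 7: its highest Dp1Tyb value, 3.54 RPKM, lay below the lowest Grik2 value in either genotype, 5.38 RPKM. The order of the middle genes and the gap below them depend on the gene length used. With the longest transcript in place of all exons, Grik2 stood at 8.06 and Neto2 at 8.70 RPKM in WT. Grik5 stayed the highest in WT and Grik1 the lowest, at 3.2 RPKM. On this length Grik1 no longer lay below every other member in all mice: it had 6.51 RPKM in Dp1Tyb replicate 4, and Grik3 had 6.4 RPKM in Dp1Tyb replicate 3.

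As a share of the summed RPKM of the 5 subunit genes, Grik1 made up 2.38%, 2.80%, 2.70%, 2.25% and 1.90% in WT replicates 1 to 5. In Dp1Tyb replicates 1 to 5 its share was 3.54%, 4.38%, 4.57%, 4.84% and 3.66%. The shares did not overlap, with means of 2.40 ± 0.363% and 4.20 ± 0.572% (SD, n = 5) and a difference of 1.79 percentage points. When the longest transcript set the length, the means were 3.6% (WT) and 6.23% (Dp1Tyb), a difference of 2.63 percentage points. The gain is small against the whole: the summed subunit RPKM was 72.8 ± 5.09 in WT and 72.4 ± 3.69 in Dp1Tyb, with overlapping ranges of 66.8 to 78.9 and 68.4 to 76.7. Grik5 alone held 63.7 ± 2.34% of the sum in WT and 61.1 ± 2.05% in Dp1Tyb. Grik4 and Grik5 together held 78.5 ± 2.16% and 77.2 ± 1.87%, again overlapping.

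**Figure D3:**
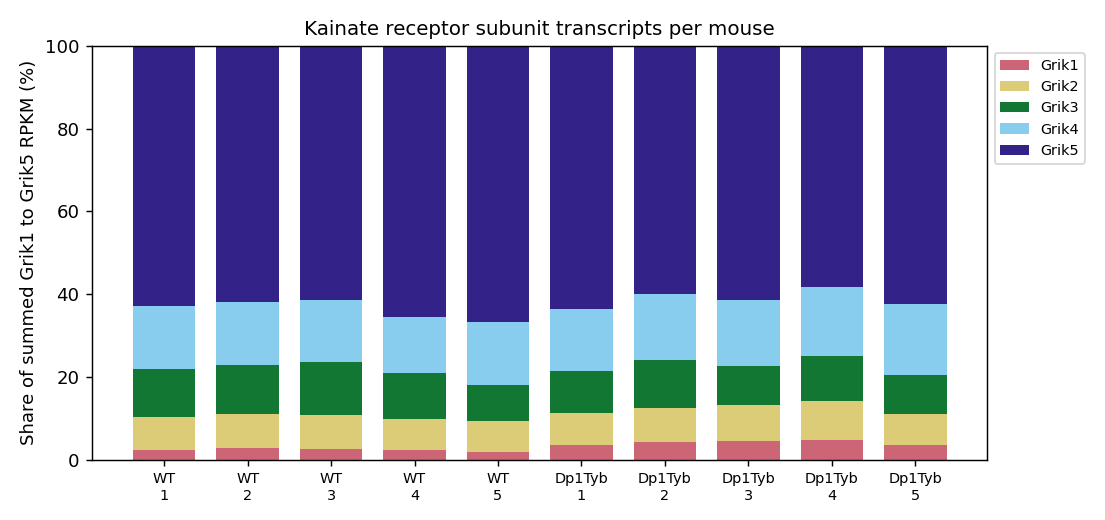
Share in percent of the summed RPKM of Grik1 to Grik5 (y axis) held by each subunit gene in each mouse (x axis, 5 WT and 5 Dp1Tyb replicates). Grik5 takes up most of every bar, and the Grik1 band at the bottom runs from 1.90% to 2.80% in WT and from 3.54% to 4.84% in Dp1Tyb.

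The ratio of Grik1 to Grik2, subunits with 56 of 63 pore-loop bases in common, was 0.303 ± 0.0343 in WT and 0.506 ± 0.0341 in Dp1Tyb on the RPKM scale (SD, n = 5), with no overlap between 0.252 to 0.336 and 0.453 to 0.544. With the longest transcript as length, this ratio was 0.397 (WT) and 0.662 (Dp1Tyb), also without overlap. Summed Neto RPKM per subunit RPKM was 0.269 ± 0.0262 in WT and 0.297 ± 0.0219 in Dp1Tyb and overlapped. These shares and ratios describe transcripts, not receptors at the membrane, and were given no test because they rest on the same counts as the fold changes.

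Grik1 is known from interneurons, and interneuron marker RNA moved in the same direction as Grik1. The summed level of Gad1, Gad2, Slc32a1, Sst, Pvalb, Vip, Npy and Lhx6 ranged from 682.9 to 765.1 CPM in WT and from 779.0 to 882.7 CPM in Dp1Tyb, without overlap, and the ratio of means was 1.13. Of the 8 genes, 2 were called higher, against 0.87% of all tested genes: Gad2, which encodes a GABA-synthesising enzyme (log2 fold change 0.34 ± 0.074 SE, edgeR adjusted p = 0.041), and Vip, which encodes a neuropeptide (0.43 ± 0.08 SE, edgeR adjusted p = 0.0209). The list did not move as one: Sst, the somatostatin gene, and Pvalb, which encodes the calcium-binding protein parvalbumin, had log2 differences of −0.05 ± 0.069 SE and −0.16 ± 0.11 SE and did not pass. Per 100 CPM of interneuron markers, a scale chosen after seeing the data, the Grik1 level was 1.59 ± 0.101 CPM (range 1.44 to 1.72) for WT and 2.44 ± 0.176 CPM (range 2.27 to 2.69) for Dp1Tyb (SD, n = 5). The genotypes did not overlap on this scale either, and the ratio of means was 1.54 in place of 1.74. This ratio leans on Gad1 and Gad2, from which most of the difference in the marker sum came. Gad1 was at 321.5 ± 20.8 CPM (WT) and 371.8 ± 22.2 CPM (Dp1Tyb), and Gad2 at 146.3 ± 12.6 and 185.8 ± 19.8 CPM. Fewer or more cells of a type and a different RNA content per cell cannot be told apart here.

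**Figure D4:**
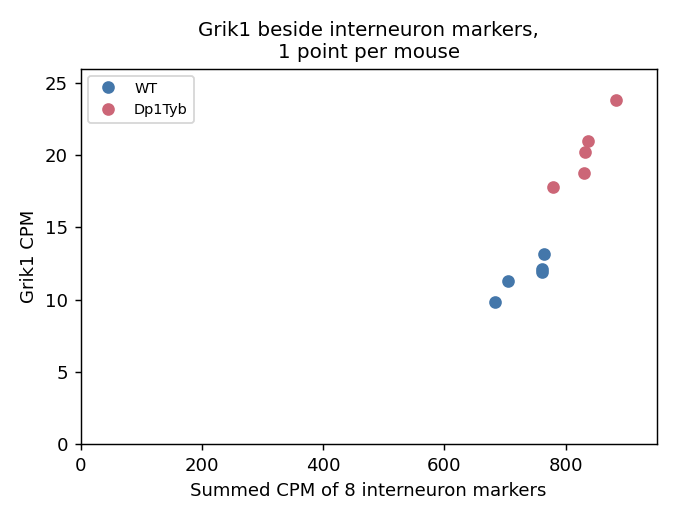
Grik1 level in CPM (y axis) against the summed CPM of 8 interneuron markers (x axis), 1 point per mouse, WT in blue and Dp1Tyb in red. The 5 Dp1Tyb mice lie higher on both axes, from 779.0 to 882.7 CPM of markers and 17.8 to 23.8 CPM of Grik1, against 682.9 to 765.1 and 9.84 to 13.2 CPM in WT.

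Kainate receptors share the postsynaptic membrane with AMPA receptors (Gria genes), NMDA receptors (Grin genes) and the delta receptors (Grid genes). Of the 13 subunit genes of these families, 12 were tested, 0 were called higher and 1 was called lower (8.33% of 12, against 1.11% of all tested genes). At an unadjusted p under 0.05 there were 2 of 12, 1 in each direction, a share near the 14.4% of all tested genes (2477 of 17237), and the median log2 fold change was 0.05. Grin3b had 2 to 15 counts per sample and was left out by the filter. None of the 13 lies in the duplicated segment.

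The gene called lower was Grin2c, an NMDA receptor subunit gene that is expressed in glia and few hippocampal neurons. It had 51.2, 57.2, 55.0, 57.8 and 60.0 CPM in WT and 48.4, 41.5, 43.4, 44.1 and 49.9 CPM in Dp1Tyb. Every Dp1Tyb mouse lay below every WT mouse, the closest being Dp1Tyb replicate 5 at 49.9 CPM and WT replicate 1 at 51.2 CPM. Grin2c fell by 0.31 ± 0.059 SE on the log2 scale (56.2 ± 3.30 to 45.4 ± 3.53 CPM, SD, n = 5, edgeR adjusted p = 0.0232). The call is close to the threshold: it was lost without Dp1Tyb replicate 2, 3 or 4, without WT replicate 2, 4 or 5, and without the plexus-poor libraries, where the adjusted p was 0.0949, the highest over all alternatives (the lowest was 2e-04). The most abundant members of this list, Gria1 and Gria2, which encode the main hippocampal AMPA receptor subunits, had log2 differences of 0.10 ± 0.051 SE and 0.05 ± 0.06 SE (edgeR adjusted p = 0.407 and 0.72). The largest rise in fitted value was that of Grid1, at 0.13 ± 0.047 SE, which did not pass (adjusted p = 0.249).

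**Figure D5:**
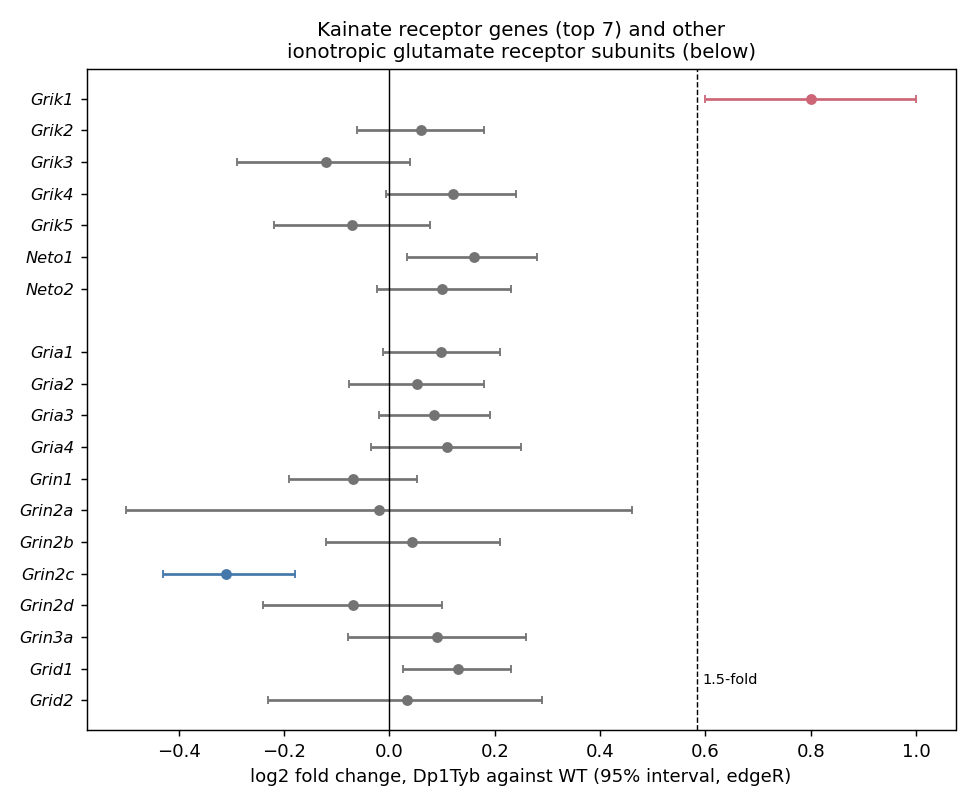
Log2 fold change in Dp1Tyb against WT (x axis) with its 95% interval from edgeR for the 7 kainate receptor genes (top) and 12 tested subunit genes of other ionotropic glutamate receptors (below). Grik1 (red) at 0.80 was called higher and Grin2c (blue) at −0.31 was called lower, the grey genes were not called, and the dashed line marks 1.5-fold.

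Kainate receptors are held, moved and modified by scaffold proteins (the Dlg family, Pick1, Grip1, Cask), the SUMO and ubiquitin machinery, sorting proteins, kinases and, at the mossy fibre synapse, the secreted C1q-like proteins that bind neurexin 3. Of 19 listed partner genes 18 were matched and tested and 0 were called by edgeR, against 1.11% of all tested genes. At an unadjusted p under 0.05 there were 7 of the 18, 4 higher and 3 lower, against 14.4% of all tested genes, and the median log2 fold change was 0.01. With DESeq2, which called 522 of the 15229 genes it gave an adjusted p (3.43%), 2 were called (Grip1 and Nrxn3). The most abundant partners, Camk2a (the alpha subunit of the kinase CaMKII) and Dlg4 (the scaffold PSD-95), had log2 differences of −0.02 ± 0.061 SE and −0.01 ± 0.051 SE, whose sign turned when single mice were left out.

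Grip1 encodes a PDZ scaffold that binds AMPA and kainate receptor subunits and had the largest positive value of the list. It had 27.6, 28.6, 29.4, 28.4 and 28.4 CPM in WT and 30.5, 32.9, 35.6, 34.8 and 32.4 CPM in Dp1Tyb. The genotypes did not overlap. The log2 difference of 0.22 ± 0.05 SE missed the threshold in edgeR (adjusted p = 0.0513) and passed it in DESeq2 (adjusted p = 0.00802), with normalization factors computed without the duplicated segment (adjusted p = 0.0489) and without Dp1Tyb replicate 1 (adjusted p = 0.0282), with a range of 0.00802 to 0.138 over all alternatives.

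C1ql2, which mossy fibres secrete to recruit postsynaptic kainate receptors, had the most negative value. WT mice had 56.2, 74.3, 70.5, 73.6 and 107.8 CPM and Dp1Tyb mice 50.6, 53.1, 55.6, 53.1 and 59.1 CPM. WT replicate 1 overlapped the Dp1Tyb range and WT replicate 5 stood far above it. The log2 difference was −0.49 ± 0.13 SE (edgeR adjusted p = 0.0906, 0.0275 without WT replicate 1, and 0.0199 to 0.327 over all alternatives). The lowest of these values came from the replicate block, whose numbers were not taken to pair the mice. C1ql2 is also a dentate granule cell marker and is itself among the 5 summed here (Prox1, C1ql2, Dsp, Plk5 and Trpc6). Their sum ranged from 282.5 to 354.1 CPM in WT and from 241.6 to 273.2 CPM in Dp1Tyb, without overlap. All 5 were lower in Dp1Tyb in fitted value, with log2 differences of −0.18 (Prox1), −0.49 (C1ql2), −0.21 (Dsp), −0.61 (Plk5) and −0.11 (Trpc6). Part of the difference in the sum is that of C1ql2, and taken singly only Plk5 did not overlap between genotypes. Of the 5 markers, Plk5 was called lower, as were 0.238% of all tested genes. The part of the dentate markers in the C1ql2 value was not tested.

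The enzymes that edit the Q/R codon shown above belong to the ADAR family. Adar and Adarb1 encode the active enzymes and Adarb2 a relative with no known editing activity. Of the 3 genes, 0 were called and 0 had an unadjusted p under 0.05 in edgeR, and DESeq2 called 0. Adar was at 230.3 ± 10.4 CPM (WT) and 236.4 ± 3.17 CPM (Dp1Tyb; SD, n = 5), a log2 difference of 0.04 ± 0.035 SE (edgeR adjusted p = 0.653). Adarb1, whose product edits the Q/R site of GluK1 and GluK2, was at 215.6 ± 6.77 and 212.1 ± 7.35 CPM, a log2 difference of −0.02 ± 0.035 SE (adjusted p = 0.787). Adarb2 had a log2 difference of 0.03 ± 0.062 SE.

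For each of the 7 genes, the genes with the most similar pattern over the 10 mice were found among 15099 genes of at least 1 CPM, by the root mean square (RMS) difference of log2 CPM after each gene was centred on its own mean. Grik1 was nearest to Hspa13 (RMS difference 0.10) and Son (0.11), against a median of 0.44 over all genes. Both lie in the duplicated segment and share with Grik1 the difference in copy number. The centring left the genotype difference in, so the contrast with the median follows largely from log2 fold changes near that of Grik1 (0.68 for Hspa13, 0.79 for Son). The genes named here for the other members lie outside the segment. For Grik2 Zc3h13 is given (0.04), for Grik3 these were Arhgap24 (0.05) and Trim66 (0.06), and for Grik4 they were Plch2 and Rnf182 (0.05 each). Grik5 was nearest to Mier2 (0.04) and Wscd2 (0.04), Neto1 to Wdr7 (0.04) and Nos1 (0.05), and Neto2 to Eif5a2 (0.03) and Mapk8 (0.03), against medians over all genes from 0.15 to 0.19.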

How the data were processed

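The authors made stranded poly(A) libraries from the hippocampus of each mouse, trimmed the 75-base paired reads with Trim Galore, mapped them to GRCm38 with TopHat2 2.0.12, kept only reads with a single alignment and counted them per gene with HTSeq. The deposited counts used here are whole numbers of reads per gene for 43629 genes, not normalized, and 14647 of these had no count in any sample. Keeping single alignments lowers the counts of genes with near-identical copies. The annotation release and the strand setting of the counting are not given in the sources used here. The 2 other deposited tables, the normalized signal and the authors' own DESeq2 comparison (mean signal, log2 fold change, its standard error, a test score, p-value and adjusted p-value), were not used.

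Samples were grouped by genotype label, and total counts ranged from 18227684 to 43692270, so low genes carry more counting error. Genes were tested with edgeR 4.0.16 in R 4.3.3 (quasi-likelihood F-test, TMM normalization, filterByExpr, no covariates, Benjamini-Hochberg adjustment over 17237 genes, threshold 0.05). SEs were derived from each log2 fold change and its F statistic. The scripts were tested on simulated counts. No 2 libraries were the same: over the 45 pairs, chi-square divided by its degrees of freedom was at least 4.71. The labels give no batch or date. Alternatives were DESeq2 1.42.0, limma-voom (limma 3.58.1), other size factors, no filter, a replicate block, and each mouse left out. The ratios to marker levels and the fit without plexus-poor libraries were chosen after seeing the data.

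CPM used TMM factors, and RPKM was computed from CPM and GENCODE M21 exon lengths. Gene names and positions are from GENCODE M21, matched by ID for 42462 genes. The partner gene Klhl17 was not matched and was not analysed here. The members and gene lists were chosen with earlier results of these data known. Genes named besides the members are those of a list past the threshold, its 2 highest in mean CPM, its largest rise and fall, the 2 tested genes nearest to Grik1 on each side, any of its 10 neighbours past the threshold and the 2 genes most similar to each member. One of the genes most similar to Grik2 is not reported here. Map3k7cl, B130034C11Rik, Nrxn3, Grin3b, Adarb2, Sst, Pvalb, Gad1, Cpne4, Bok, Prss35, the dentate granule cell markers and the called marker genes were named after their values were seen.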

Additional observations from a re-analysis of the deposited data

Results flagged for a closer look

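Grik3 in WT replicate 5 stood apart from its group, at 60.4 CPM against 73.6 to 78.7 CPM in the other 4 WT mice. The gap of this mouse to the nearest other WT mouse was 0.723 of the whole range of the group, above the 95% critical value of Dixon's test for 5 samples. Each of the 7 kainate receptor genes was examined in both genotypes, 14 groups in all, of which chance flags about 0.7.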

How the results depend on the processing

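The fit without the plexus-poor libraries is not among the 16 alternative analyses counted here and is given apart from them. Over these 16, 25 named genes gave 400 values, of which 378 kept their direction and their side of the threshold. Of the rest, 10 lost the call, 7 gained it and 5 changed sign. Grik1 remained the 1 called member in each (log2 fold change 0.73 to 0.85, adjusted p 1.98e-13 to 0.00175). The number of called genes over all tested, 191, became 522 with DESeq2, 315 with a replicate block, 108 without the plexus-poor libraries and 105 to 218 with single mice left out. The call of Grin2c was lost without the plexus-poor libraries (0 called in its list), and single mice left out gave 0 to 1. For the partner genes, 0 became 1 with factors computed without the segment (Grip1), 2 with DESeq2, 1 with no filter (C1ql2), 3 with the replicate block (C1ql2, Grip1 and Nrxn3) and 0 to 1 with single mice left out. Called neighbours of Grik1 ranged from 6 to 7. The gain in Grik1 share became 2.63 percentage points with the longest transcript, and with single mice left out it ranged from 1.63 to 1.96, while the difference in summed subunit RPKM ranged from −1.92 to 1.11. Log2 differences changed sign for Grik2 (−0.0024) and Camk2a (0.023) without the plexus-poor libraries. With single mice left out, those of Camk2a ranged from −0.064 to 0.016, of Dlg4 from −0.049 to 0.011 and of 2810407A14Rik from −0.037 to 0.4, with the sign turned for all of them without WT replicate 2 and for Dlg4 also without Dp1Tyb replicate 2 or WT replicate 5. The causes were not tested. Deviations of same-numbered mice correlated between −0.0686 and 0.277 and WT mice 2 to 5 each correlated best with a Dp1Tyb mouse of another number, so the numbers were not taken to pair the mice. With 5 mice per genotype, differences as small as those of the 6 members outside the segment did not pass the test, and Grik1, with the fewest counts of the members, has the widest relative interval.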
